A study of Homo sapiens with 2 samples.

Results

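Paclitaxel-resistant SUM159 cells grown as spheroids were set against paclitaxel-resistant SUM159 cells grown attached to plastic, gene by gene and cell by cell. SUM159 is an established triple-negative breast cancer (TNBC) line, and paclitaxel is a taxane that stabilises microtubules and arrests dividing cells in mitosis. The members were the cell barcodes of these 2 populations with at least 1000 unique molecular identifiers (UMIs, each marking 1 captured RNA molecule): 2164 spheroid cells and 5895 attached cells. These 8059 cells came from a series of 30122 deposited barcodes, counted before that minimum. The series held 6 populations on 2 cartridges of a microwell and bead capture system (BD Rhapsody) read with a targeted breast cancer panel. The spheroid cartridge carried paclitaxel-resistant, doxorubicin-resistant and treatment-naïve spheroids, and the attached cartridge the same 3 populations grown attached, each marked by its own sample tag. Every population was a single culture on a single cartridge, with no replicate. Culture form, medium and cartridge differed together, so their effects cannot be told apart in any difference given here. For the spheroid cells the labels say only "treated" where the series text says resistant, and they describe the resistance as raised in attached cells by prolonged exposure to increasing drug doses. The same labels give 1 growth medium with 5% serum for both cultures, whereas the study's methods describe Matrigel-coated wells and 10% serum for the spheroids. Both populations carried the wild-type genotype of the line.

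In a spheroid, cells attach to each other and to matrix rather than to plastic, and oxygen, nutrients and growth factors reach the outer cells first. Cultures of this kind are used as models of small tumours, and they are known for slower proliferation, hypoxia-inducible genes such as VEGFA and altered matrix and inflammatory genes. The comparison asks which panel genes differed between the 2 growth forms once the cells had become resistant. The line's own markers were checked first. VIM, the mesenchymal intermediate filament, was detected in every cell. ESR1, the oestrogen receptor, had 19 UMIs in all spheroid cells and 103 in all attached cells, and EPCAM, an epithelial adhesion molecule, 33 and 147. ERBB2, the HER2 receptor that triple-negative lines do not amplify, had 746 CPM in spheroid cells and 1194 in attached cells. ABCB1, the drug efflux pump that exports paclitaxel, was found in 83.4% of spheroid cells and 93.1% of attached cells at full depth. Its level was 3539.5 CPM in paclitaxel-resistant spheroids, against 234 in treatment-naïve spheroids, and 4649 in paclitaxel-resistant attached cells, against 146 in treatment-naïve attached cells.

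The spheroid cells held 8023738 UMIs (median 3293 per cell, 123 genes) and the attached cells 23402887 (median 3653 per cell, 138 genes). The minimum of 1000 UMIs removed 1587 of 3751 spheroid barcodes, which held 5.07% of the spheroid UMIs, and 1 of 5896 attached barcodes. The spheroid and attached matrices shared 25 barcode sequences, within the 21 to 36 shared by any pair of populations across the cartridges, and populations of 1 cartridge shared 0. Levels are given as CPM, the UMIs of a gene per 1000000 UMIs of the kept cells. Intervals are 95% exact intervals of the counts; they cover counting error only and say nothing of how much another culture would differ, so no p-value is given.

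Of 343 genes with a UMI in either population, 255 had at least 50 UMIs in one of them and were compared. A gene was called when its ratio was 2 or more and its higher population had 50 UMIs or more. On this rule 37 genes were higher in spheroid cells (14.5% of those compared) and 65 were lower (25.5%), while 153 passed neither way. The interval lay wholly beyond 2-fold for 33 of the higher and 48 of the lower genes. The median gene stood at -0.43 on the log2 scale, spheroid over attached, which is 1.35-fold lower. With levels scaled to the median ratio instead of the total, 48 genes were higher and 19 lower, so that 71.6% of calls were higher rather than 36.3%. All 37 higher genes were among the 48. Of the 65 lower genes, 19 were still past the rule, so that the lower calls nearest the threshold rest on the choice of scale.

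**Figure D1:**
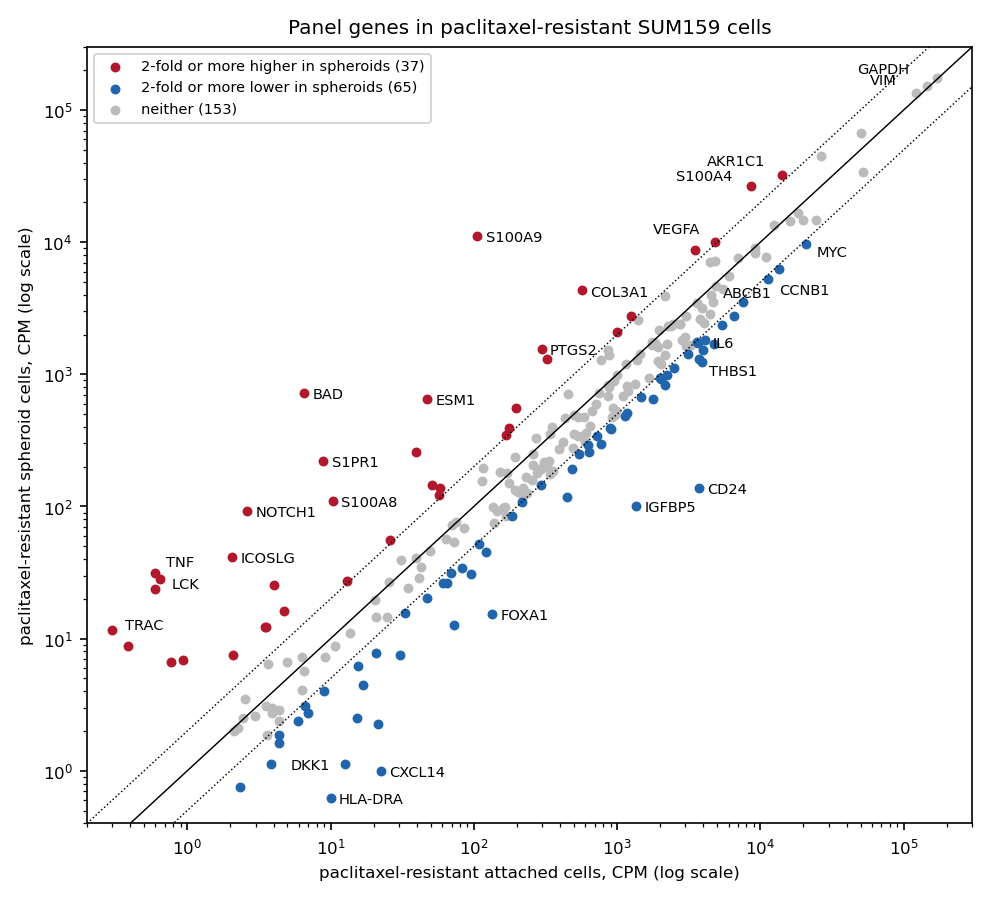
Level of each compared gene in paclitaxel-resistant spheroid cells (vertical axis) against attached cells (horizontal axis), in CPM on log axes, with the line of equality and dotted lines at 2-fold. The 37 higher genes (red) reach more than 100-fold, for BAD and S100A9, whereas most of the 65 lower genes (blue) lie close to the 2-fold line and CD24 lies farthest below it.

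The alarmin genes S100A9 and S100A8, which encode calcium-binding proteins of inflamed epithelium and myeloid cells, gave the strongest abundant signal. S100A9 (chromosome 1, 153357854 to 153361023, GRCh38.p14) had 11164 CPM in spheroid cells and 106 in attached cells, 105-fold higher (101 to 109.7). Its partner S100A8 had 109.8 and 10.4, 10.6-fold higher (9.16 to 12.2). S100A9 was spread unevenly over the spheroid cells. With each cell thinned to 1000 UMIs, 69.7% of spheroid cells held the transcript against 6.50% of attached cells, the median spheroid cell held 2, the cell at the 90th percentile 34, and the richest 10% of cells held 62.0% of all S100A9 UMIs. Its variance over cells was 54.6 times its mean, whereas independent counting gives a value near 1. S100A4, another member of the family, linked to motility, was abundant in both, with 26825 CPM in spheroid cells and 8572 in attached cells, 3.13-fold higher (3.11 to 3.15). Because treatment-naïve spheroids on the same cartridge held far more S100A9, transfer between populations was gauged from the gene with the lowest level relative to them. KRT14, a basal keratin, stood in paclitaxel-resistant spheroid cells at 0.797% of its treatment-naïve spheroid level, whereas S100A9 stood at 17.6% and S100A8 at 31.0%. In attached cells S100A9 stood at 2.42% and S100A8 at 18.7% of their treatment-naïve attached levels, where the lowest gene, IGFBP3, stood at 0.730%. The part of transfer in these levels was not tested. When the cells were restricted to those whose profile matched their own population best among the 3 of their cartridge, 1881 spheroid and 5417 attached cells, the log2 ratio of S100A9 was 6.00 in place of 6.72; the match itself uses S100A9.

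A further group was scarce in attached cells and low to moderate in spheroid cells. BAD, a pro-apoptotic BCL2-family member (chromosome 11, 64269828 to 64284704), had 724 CPM in spheroid cells and 6.54 in attached cells, 111-fold higher (94.4 to 131), and was found in 48.1% and 0.594% of cells at 1000 UMIs. Its variance over spheroid cells was 1.08 times the mean, so it showed none of the concentration in few cells that S100A9 did. NOTCH1, the receptor of the Notch pathway, had 92.6 and 2.61 CPM (35.5-fold, 27.3 to 46.9), and S1PR1, a sphingosine 1-phosphate receptor best known in endothelium and lymphocytes, 221 and 8.93 (24.7-fold, 21.4 to 28.6). The T-cell kinase gene LCK, the T-cell receptor gene TRAC, the cytokine gene TNF, the melanosome-transport gene MLPH and the cell cycle inhibitor gene CDKN2A were also 23.0- to 52.5-fold higher, on 71 to 252 UMIs in spheroid cells and 7 to 15 in attached cells, and were found in 0.416% to 2.31% of spheroid cells at 1000 UMIs. CDKN2A had a log2 ratio of 3.76, in place of 4.52, and too few UMIs for the rule without the 5% of cells with most UMIs. ICOSLG, a costimulatory ligand, had 332 UMIs in spheroid cells and 48 in attached cells and was 20.2-fold higher (14.9 to 27.9). Of these 9 genes, BAD, NOTCH1, S1PR1, LCK, TRAC, TNF and MLPH passed the same rule in all 3 populations of the spheroid cartridge, and CDKN2A and ICOSLG in the doxorubicin-resistant cells alone of the other 2, CDKN2A having fewer than 50 UMIs in treatment-naïve cells.

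Other markers of the cell types that LCK, TRAC and S1PR1 are best known from were scarce in both cultures. The 15 T and NK lymphocyte markers summed to 59.9 CPM in spheroid cells and 17.6 in attached cells, and 3 reached the count needed for comparison, of which LCK and TRAC were higher. CD3E, a defining T-cell gene, had 2 UMIs in spheroid cells and 0 in attached cells, and PTPRC, the pan-leukocyte CD45 gene, 58 and 213. Myeloid markers summed to 172 and 227 CPM (3 of 6 higher: CCR2, C1QA and ITGB2), B-lineage markers to 20.8 and 82.0 (2 of 3 lower: FCRLA and CD38). Of all compared genes, 14.5% were higher and 25.5% lower. Under the 9 other choices of cells or scaling, CCR2 and ITGB2 each kept their call in 5, CD38 in 6, C1QA in 8 and FCRLA in 9. In the cells that matched their own population best, 1 of 6 myeloid markers was higher and 1 lower. Of the endothelial markers only S1PR1 could be compared, with FLT1 and KDR at 0 UMIs in spheroid cells and at 1 and 3 in attached cells.

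**Figure D2:**
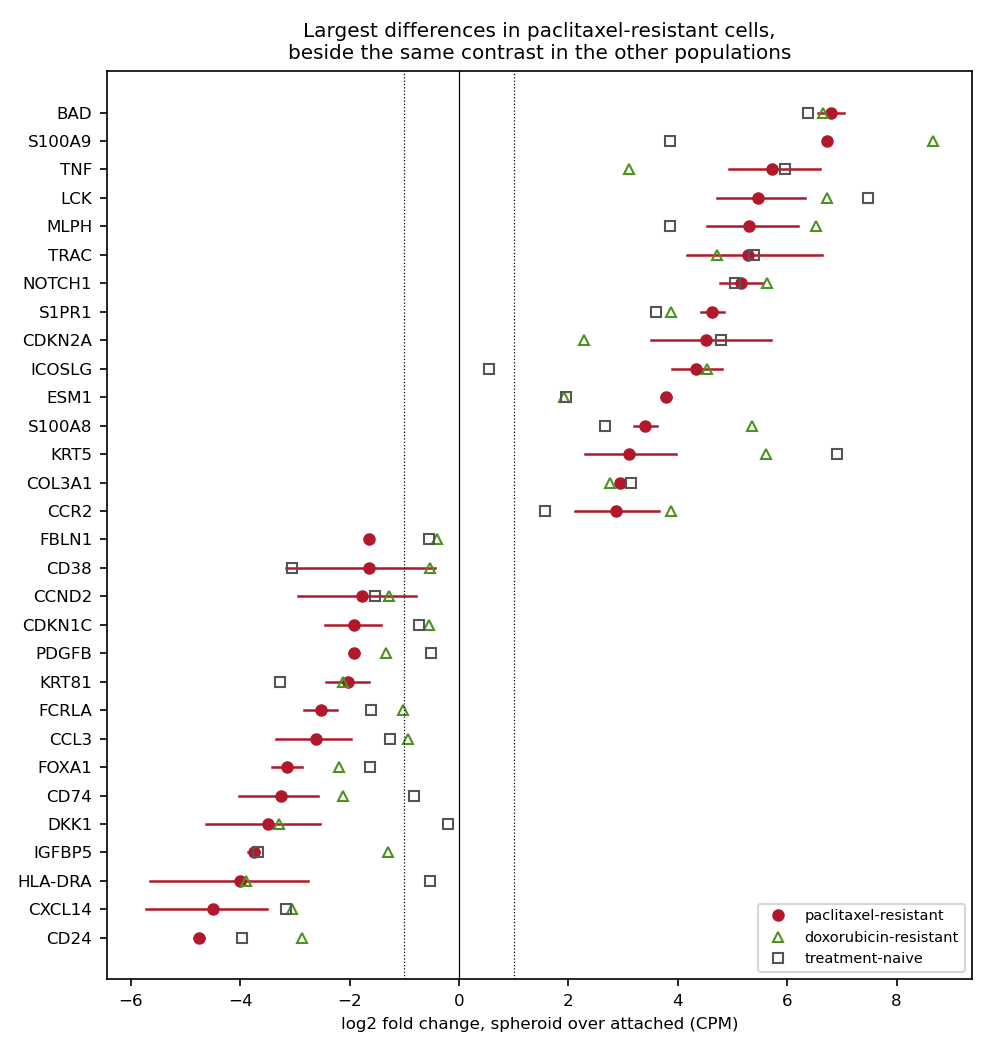
Log2 fold change, spheroid over attached, of the 15 genes with the largest ratio in each direction in paclitaxel-resistant cells (red circles, with 95% counting intervals), beside doxorubicin-resistant cells (triangles) and treatment-naïve cells (squares); dotted lines mark 2-fold. BAD, TRAC, NOTCH1 and COL3A1 lie within 1 log2 unit over the 3 populations, whereas ICOSLG, DKK1 and HLA-DRA lie inside 2-fold in treatment-naïve cells and beyond it in both resistant populations.

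Angiogenic factors were higher as a group. Of 5 compared, 4 were higher (against 14.5% of all compared genes) and 1 lower, with a median log2 ratio of 1.10 against -0.43 for all compared genes, and the median lay between 0.94 and 1.53 over the other choices of cells and scaling. ESM1, an endothelial-associated proteoglycan induced by VEGF, had 654 CPM in spheroid cells and 47.4 in attached cells, 13.8-fold higher (12.9 to 14.7). It was detected in 28.1% of spheroid cells and 3.58% of attached cells at 1000 UMIs. VEGFA, the main angiogenic ligand, was present in nearly every cell of both cultures and had 10005 CPM in spheroid cells and 4854 in attached cells, 2.06-fold higher (2.04 to 2.08). It stayed so close to the threshold that 3 of the 9 other choices of cells or scaling took it below 2-fold. ENG, a TGF-beta co-receptor, was 2.84-fold higher (2.72 to 2.96) and ANGPT1, the ligand of TIE2, 2.14-fold (1.89 to 2.42), a call not given by 2 of those choices. PDGFB, a mitogen for pericytes, went the other way, with 118 CPM in spheroid cells and 445 in attached cells, 3.78-fold lower (3.54 to 4.05).

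The hypoxia list named 17 genes, of which 9 had a UMI and 8 could be compared. CA9, LDHA, PGK1 and SLC2A1 were among those not compared. Of the 8 hypoxia-responsive genes compared, 1 was higher, VEGFA, and none was lower. Of all compared genes, 14.5% were higher and 25.5% lower, so 1 higher gene of 8 is near the share of all genes. The median log2 ratio of the list was -0.0025 before and 0.43 after scaling to the median gene. The transcript of HIF1A, the oxygen-regulated transcription factor, had a ratio of 1.08 (1.07 to 1.09), and its protein was not measured. The glucose transporter gene SLC2A3 had a ratio of 0.999 (0.980 to 1.02) and EGLN1, an oxygen sensor of the same pathway, 0.998 (0.962 to 1.03). GAPDH, a glycolytic enzyme, made up 175058 CPM in spheroid cells and 169915 in attached cells. The carbonic anhydrase gene CA12, which is hypoxia-inducible in many carcinomas, had a ratio of 0.756 (0.742 to 0.771). IGFBP3, a binding protein of insulin-like growth factors, had 19.6 CPM in spheroid cells and 20.6 in attached cells, but its log2 ratio of -0.07 was -1.71 in the cells that matched their own population best and 0.67 in cells with few mitotic transcripts. These IGFBP3 levels were 2.26% of the treatment-naïve level in spheroids and 0.730% in attached cells. KRT14 in spheroids, the gauge of transfer there, stood at 0.797%. In attached cells IGFBP3 was itself the lowest gene relative to treatment-naïve cells, with KRT14 at 0.957%. The part of transfer in the IGFBP3 levels was not tested. In the full set of cells the interval of each of the 7 others lay inside 2-fold.

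Matrix genes divided. COL3A1, a fibrillar collagen, had 4328 CPM in spheroid cells and 565 in attached cells, 7.66-fold higher (7.51 to 7.82), in 63.2% and 23.4% of cells at 1000 UMIs. DCN, a collagen-binding proteoglycan, was 2.07-fold higher (1.97 to 2.17), a call that 4 of the 9 other choices of cells or scaling did not give. COL1A1, the other fibrillar collagen compared, had 2334 and 2378 CPM, a ratio of 0.981 (0.965 to 0.998). FN1, fibronectin, was 1.32-fold higher (1.31 to 1.32), short of the rule. Against these, FBLN1, a basement-membrane fibulin, was 3.14-fold lower (3.08 to 3.21) at 1248 CPM in spheroid cells and 3922 in attached cells, and THBS1, a matricellular anti-angiogenic protein, 2.85-fold lower (2.79 to 2.90) at 1306 and 3716. None of 7 matrix-proteolysis genes passed in either direction; the urokinase gene PLAU had a ratio of 0.948 (0.937 to 0.960) and BMP1, a procollagen proteinase, 1.57 (1.52 to 1.62).

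In the mesenchymal list 3 of 15 genes were higher and 1 was lower, where 14.5% and 25.5% of all compared genes were. S100A4 and ENG are given above; TGFB1, a growth factor that drives epithelial-mesenchymal transition, had 205 UMIs in spheroid cells and 95 in attached cells and was 6.29-fold higher (4.91 to 8.11). CDH6, a mesenchymal-type cadherin, was 2.13-fold lower (2.05 to 2.22), a call kept under 7 of the 9 other choices of cells or scaling. The abundant members differed less, with a ratio of 1.11 for VIM and 1.04 for LGALS1, a galectin. PDGFRB, a receptor of mesenchymal cells, had 1389.8 and 884 CPM, 1.57-fold (1.54 to 1.61), and PDGFRA 1.58-fold (1.57 to 1.60). Epithelial markers of the line did not share a direction: the p53-family gene TP73 was 2.70-fold lower (2.42 to 3.02), whereas the integrin gene ITGA6 had a ratio of 1.86 (1.83 to 1.89) and CDH3, P-cadherin, 0.807 (0.610 to 1.06) on 70 and 253 UMIs. The basal keratin gene KRT5 was 8.59-fold higher (4.95 to 15.6), on 53 UMIs in spheroid cells and 18 in attached cells. These spheroid UMIs stood at 1.38% (1.03% to 1.81%) of the treatment-naïve spheroid level, close to the 0.797% of KRT14, and 5 of the 9 other choices of cells or scaling did not give the call. The part of transfer in it was not tested.

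Inflammatory mediators also divided. PTGS2, the inducible prostaglandin synthase COX-2, had 1549 CPM in spheroid cells and 297 in attached cells, 5.22-fold higher (5.06 to 5.37). These levels were 9.68% of the treatment-naïve one in spheroids and 2.52% in attached cells, and the part of transfer in them was not tested. CXCL8, the neutrophil chemokine interleukin 8 and one of the most abundant panel transcripts, had 44681 and 26470.4, 1.69-fold (1.68 to 1.69). IL6, a cytokine that signals through STAT3, had 1518 and 3947, 2.60-fold lower (2.55 to 2.65). The chemokine genes CXCL14 and CCL3 were 22.6-fold (11.4 to 52.7) and 6.14-fold (3.91 to 10.2) lower, on 8 and 20 UMIs in spheroid cells against 528 and 358 in attached cells. These attached levels were 5.85% and 7.87% of the doxorubicin-resistant attached ones on the same cartridge, where the lowest gene, the kinase gene STK32B, stood at 3.48%. In the cells that matched their own population best, the log2 ratios of CXCL14 and CCL3 were -5.12 and -2.38, in place of -4.50 and -2.62. IL1B showed how a level and a share of cells can part: its level was 1.76-fold higher (1.72 to 1.80) at 1517 and 862 CPM, while 35.9% of spheroid cells held it against 44.9% of attached cells at 1000 UMIs. Over the 19 cytokine and chemokine genes compared, 5 were higher and 3 lower, and the median log2 ratio of -0.10 became 0.34 after scaling to the median gene.

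CD24 had the lowest ratio of all compared genes, although the counting interval of CXCL14 includes its value. CD24 encodes a mucin-like surface protein of luminal and differentiated epithelial cells (chromosome 6, 106969831 to 106976855). It had 138 CPM in spheroid cells and 3719.8 in attached cells, 26.9-fold lower (25.4 to 28.6), and 10.03% of spheroid cells held it at 1000 UMIs against 68.5% of attached cells. FOXA1, a pioneer factor of the luminal lineage, had 15.3 and 135 CPM, 8.81-fold lower (7.35 to 10.6), and the hair-type keratin gene KRT81 was 4.09-fold lower (3.14 to 5.41). Across the 23 luminal and simple epithelial genes compared, 6 were lower and 3 higher, close to the 25.5% and 14.5% of all genes, with a median log2 ratio of -0.59 against -0.43. The 3 higher were MLPH, FGFR4 and ZNF703, with log2 ratios of 5.31, 1.84 and 1.26. FGFR4 kept its call under 6 of the 9 other choices of cells or scaling, MLPH and ZNF703 under all 9. The keratin genes KRT8 and KRT18 had ratios of 0.642 (0.633 to 0.652) and 0.899 (0.894 to 0.905).

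Members of other groups were lower as well. In the insulin-like growth factor axis 3 of 4 genes were lower, against 25.5% of all compared genes: IGFBP5, a secreted binding protein, had 101 CPM in spheroid cells and 1353 in attached cells (13.5-fold lower, 12.5 to 14.4), the related IGFBP7 3542 and 7601 (2.15-fold, 2.12 to 2.17), and the receptor gene IGF1R 298 and 769.9 (2.58-fold, 2.48 to 2.70). The median log2 ratio of the 4 lay between -1.56 and -0.80 over the other choices of cells and scaling. IGFBP7 lost its call under 3 of them and IGF1R under 1, so that 1 of 4 was lower with levels scaled to the median gene, and 2 of 4 without the 10 most abundant genes in the total or in thinned cells. HLA-DRA, an MHC class II gene, and CD74, the class II invariant chain gene, had 5 and 18 UMIs in spheroid cells and 234 and 499 in attached cells. They were 16.0-fold (6.78 to 49.9) and 9.50-fold (5.95 to 16.2) lower. Of the Wnt pathway, the feedback inhibitor AXIN2 was 3.08-fold lower (2.70 to 3.53) and the secreted antagonist DKK1 11.2-fold lower (5.84 to 24.8) on 9 UMIs in spheroid cells and 295 in attached cells. CTNNB1, beta-catenin itself, had a ratio of 0.638 (0.627 to 0.650). MYC, a growth-promoting transcription factor and target of several of these pathways, had 9619.8 and 20756 CPM, 2.16-fold lower (2.14 to 2.17), and ID1, an inhibitor of differentiation, was 2.36-fold lower (2.27 to 2.45). Both MYC and ID1 kept their call under 7 of the 9 other choices of cells or scaling. They lost it with levels scaled to the median gene or without the 10 most abundant genes in the total.

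**Figure D3:**
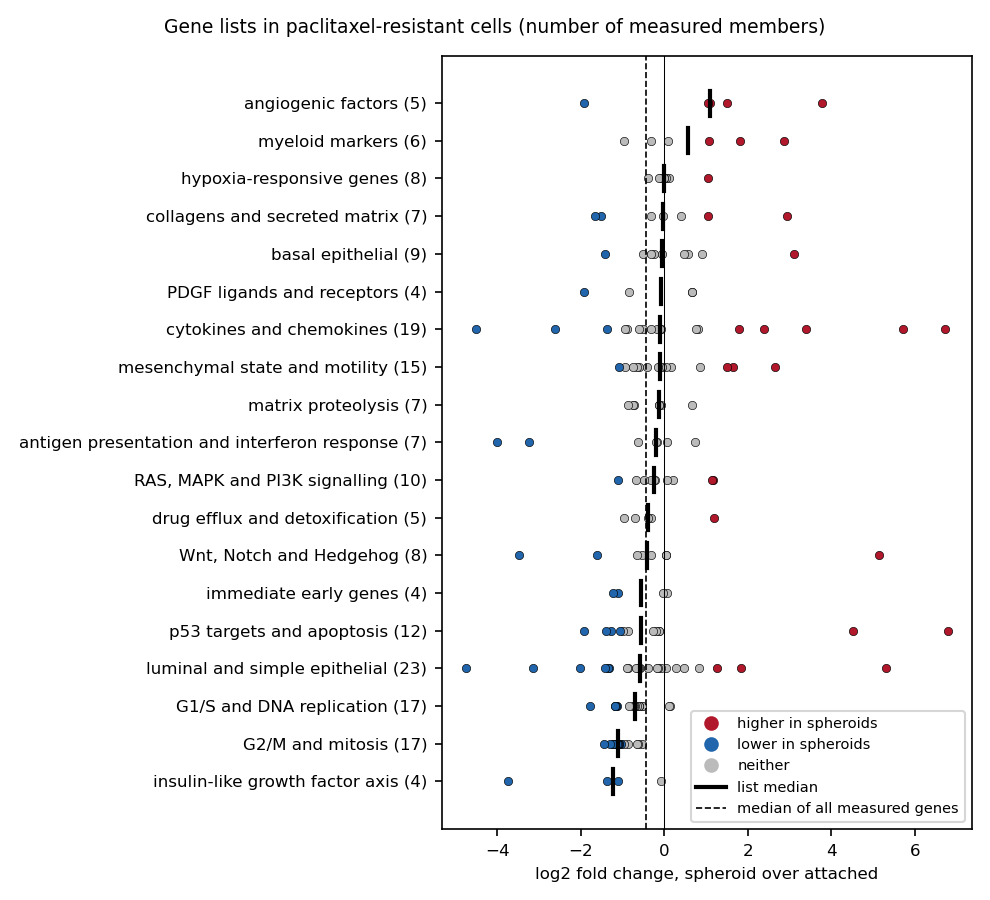
Log2 fold change, spheroid over attached, of every compared member of the gene lists with at least 4 such members (points; red higher, blue lower, grey neither), with the list median (black bar) and the median of all compared genes at -0.43 (dashed line). The angiogenic list lies farthest right with a median of 1.10, and the G2/M and insulin-like growth factor lists farthest left at -1.10 and -1.24.

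Mitotic genes were lower together. All 17 genes of the G2/M list had a log2 ratio below 0, 12 passed the rule, against 25.5% of all compared genes, and the median was -1.10 against -0.43 for all compared genes. Their summed level was 30350 CPM in spheroid cells and 63354 in attached cells. KIF2C, a kinesin that corrects kinetochore attachment, was 2.74-fold lower (2.66 to 2.82), the kinetochore gene NDC80 2.49-fold (2.37 to 2.60), CDC20, an activator of the anaphase-promoting complex, 2.36-fold (2.33 to 2.39), and the mitotic cyclin gene CCNB1 2.14-fold (2.12 to 2.16). The nearest to 1 were UBE2C, which encodes the ubiquitin-conjugating enzyme of that complex, at a ratio of 0.690 (0.679 to 0.700) and the proliferation marker MKI67 at 0.648 (0.612 to 0.687). Because the members sit so near 2-fold, the number past the rule depended on scale: with levels scaled to the median gene 1 of 17 passed, and with the total taken without the 10 most abundant genes 2 did, while the list median was still -0.66 under the first of these.

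Many promoters of this group carry CCAAT boxes, bound by NF-Y, and a cell cycle genes homology region (CHR), through which the MuvB-containing complexes repress them in quiescence and activate them in G2. The letters of these elements are shown for 4 members that were lower in spheroid cells, as context for genes that were lower together. Sequences are RefSeq promoter windows of build GRCh38.p14, plus strand, 5′ to 3′. Capitals mark the CCAAT box and the CHR. The CCAAT box is written ATTGG where it lies on the other strand. The CHR was searched as TTTGAA, which reads TTCAAA on the other strand. Its variant form TTCGAA was searched too.
CDC20, chr1:43358871-43358936: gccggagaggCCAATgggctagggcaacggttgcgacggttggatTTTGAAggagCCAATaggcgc
CENPA, chr2:26785920-26786048: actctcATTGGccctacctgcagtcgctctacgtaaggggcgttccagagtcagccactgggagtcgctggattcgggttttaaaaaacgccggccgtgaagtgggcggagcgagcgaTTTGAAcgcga
CEP55, chr10:93496487-93496522: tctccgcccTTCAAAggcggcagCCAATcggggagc
CCNB1, chr5:69167055-69167105: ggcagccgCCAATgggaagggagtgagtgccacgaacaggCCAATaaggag
Over the 300 bases from 250 before to 50 after each start, TTTGAA or TTCGAA was found in 11 of the 15 G2/M genes with a window, against 16.4% of 35116 promoters, and CCAAT in 10 of 15, against 34.6%. CDC20 holds both elements within this stretch, whereas CCNB1 holds 2 CCAAT boxes and neither form of the other motif in its window. MKI67, UBE2T and PRC1 also hold both elements in their windows and did not pass the rule, with log2 ratios of -0.62, -0.88 and -0.98. CDC20, CENPA, CEP55 and CCNB1 were 2.36-, 2.36-, 2.14- and 2.14-fold lower in spheroid cells. A match of letters is a description and does not show that a factor was bound.

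Fewer spheroid cells than attached cells held many mitotic transcripts. In cells thinned to 1000 UMIs, the 17 genes together gave a median of 8 UMIs per spheroid cell (10th to 90th percentile 1 to 77) and 30 per attached cell (4 to 159). At least 50 such UMIs were held by 367 of 2164 spheroid cells (16.96%, exact interval 15.4% to 18.6%) and 2292 of 5895 attached cells (38.9%, 37.6% to 40.1%). Doxorubicin-resistant cells had medians of 15 in spheroids and 49 attached, and treatment-naïve cells 4 and 8. These values run over a continuous range, with 8.78% of spheroid and 8.79% of attached cells holding 16 to 25, and a cell's phase was not called from them.

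**Figure D4:**
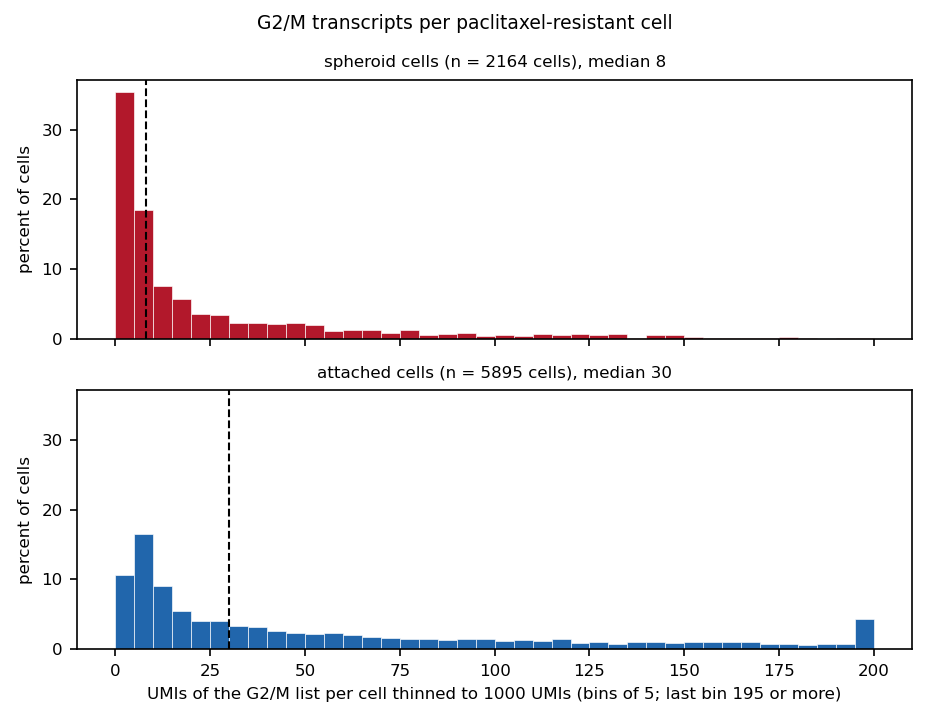
Share of cells (vertical axis, percent) by the number of UMIs from the 17 G2/M genes in each cell thinned to 1000 UMIs (horizontal axis, bins of 5), for spheroid cells above and attached cells below, with the median dashed. Spheroid cells pile up at the low end with a median of 8, while attached cells, with a median of 30, extend to and beyond the last bin.

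Of the 17 genes of G1/S and DNA replication, none was higher and 5 were lower, near the 25.5% of all compared genes. Their median log2 ratio was -0.71, against -0.43 for all. With levels scaled to the median gene, or without the 10 most abundant genes in the total, 1 of 17 was lower. TYMS and RRM2, which supply deoxynucleotides, were 2.26-fold (2.22 to 2.29) and 2.24-fold (2.19 to 2.29) lower, and the cell cycle transcription factor gene MYBL2 2.19-fold (2.14 to 2.23), whereas the G1 cyclin gene CCND1 had a ratio of 1.10 (1.09 to 1.11) and the licensing factor gene CDC6 1.08 (1.04 to 1.12). Cells with at most 20 G2/M UMIs per 1000 were also compared on their own, a split chosen after seeing the data. It selects cells by the G2/M genes, which differ between the cultures, so genes that vary with them may differ less through the selection alone. No phase was called, so the split cannot place a difference in the cell cycle. It left 1462 spheroid (67.6%) and 2505 attached (42.5%) cells. Among them TYMS had 1342 CPM in spheroid cells and 1309 in attached cells, a ratio of 1.03 (0.995 to 1.06), and RRM2 306 and 304, a ratio of 1.01 (0.945 to 1.07). No G1/S gene passed the rule in these cells, where 22.5% of genes were lower and 11.4% higher. Of the other lower G1/S genes, MYBL2 had a ratio of 0.756 (0.723 to 0.789) and DCK 0.519 (0.488 to 0.551), both inside 2-fold. CCND2 had a ratio of 0.263 on 7 UMIs in spheroid cells and 49 in attached cells, too few for the rule. In the cells with more G2/M UMIs, TYMS had 3934 CPM in spheroid cells and 7843 in attached cells, a ratio of 0.502 (0.492 to 0.511). There RRM2 had a ratio of 0.609 (0.594 to 0.624) and MYBL2 0.590 (0.577 to 0.604). DCK had a ratio of 0.510 (0.486 to 0.536) there, close to its ratio in the cells with few G2/M UMIs. Several leading genes of other groups kept their direction in cells with few G2/M UMIs: S100A9 was 88.0-fold higher, COL3A1 8.21-fold and ESM1 12.1-fold, while CD24, IGFBP5, THBS1 and MYC had ratios of 0.0321, 0.0534, 0.336 and 0.402. Of the 37 higher genes, 26 were higher in these cells too. Of the 11 others, 7 came inside 2-fold, namely VEGFA (1.92), DCN (1.48), AKR1C1 (1.90), ANGPT1 (1.59), GPNMB (1.73), ITGB2 (1.65) and LGALS3 (1.98), and 4 had fewer than 50 UMIs. The angiogenic list then had 2 of 5 higher, in place of 4.

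Efflux and detoxification genes did not follow one course. ABCB1 had 3539.5 CPM in spheroid cells and 4649 in attached cells, a ratio of 0.761 (0.751 to 0.771), and ABCG2, another efflux pump, 473 and 919.8, a ratio of 0.514 (0.497 to 0.532) just short of the rule. The transcripts were found in 67.5% and 27.4% of spheroid cells and 80.8% and 51.6% of attached cells at 1000 UMIs. The richest 10% of cells held 50.03% of ABCB1 UMIs in spheroid cells and 42.0% in attached cells. GSTP1, a glutathione transferase, had a ratio of 0.609 (0.606 to 0.613), whereas AKR1C1, an aldo-keto reductase, had 32523 and 14186 CPM and was 2.29-fold higher (2.28 to 2.30). Among signalling genes AKT1, a survival kinase, was 2.20-fold higher (2.16 to 2.24) and the GTPase gene HRAS 2.24-fold (2.14 to 2.35), and SRC, a kinase of focal adhesions, was 2.17-fold lower (2.07 to 2.28). SRC kept its call under 7 of the 9 other choices of cells or scaling, AKT1 and HRAS under all 9.

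**Figure D5:**
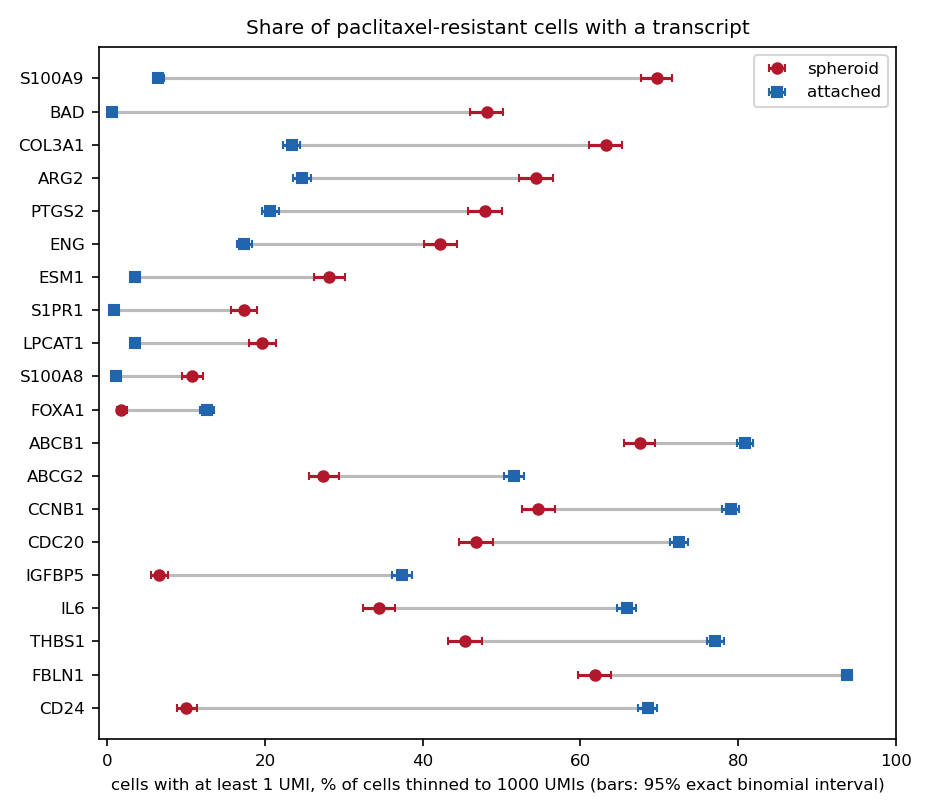
Share of cells with at least 1 UMI of 20 genes in paclitaxel-resistant spheroid cells (red circles) and attached cells (blue squares), in percent of cells thinned to 1000 UMIs, with 95% exact binomial intervals. S100A9 differs most upward (69.7% and 6.50%) and CD24 most downward (10.03% and 68.5%), and the efflux pumps ABCB1 and ABCG2 lie lower in spheroid cells.

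The same contrast in the other populations of the 2 cartridges showed which differences were shared. Of the 37 genes higher in paclitaxel-resistant spheroid cells, 35 were also higher in doxorubicin-resistant ones (94.6% of the 37, and 72.9% of 48 there) and 26 in treatment-naïve ones (70.3%, and 56.5% of 46 there). Of the 65 lower genes, 34 were also lower in doxorubicin-resistant cells (52.3%, and 75.6% of 45) and 36 in treatment-naïve cells (55.4%, and 59.0% of 61). These contrasts use other cells but the same pair of cartridges, so they are no replicates of the culture effect. Of all genes compared there, 17.9% were higher and 16.8% lower in doxorubicin-resistant spheroids, and 17.6% and 23.3% in treatment-naïve ones. HRAS and IL7R, an interleukin receptor gene, passed upward in paclitaxel-resistant cells alone, and 14 genes passed downward in them alone, among them FBLN1, CDKN1C, TYMS, MDM2, MALAT1 and the complement genes C1S and C4A; that passing the rule in one population and not another marks a difference was not tested.

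Several folds differed between the populations by more than counting error. VEGFA was 2.06-fold higher in paclitaxel-resistant spheroids and 2.08-fold in doxorubicin-resistant ones, against a ratio of 0.816 in treatment-naïve cells, where attached cells already held 12839.8 CPM. ESM1 was 13.8-fold higher in paclitaxel-resistant cells, 3.78-fold in doxorubicin-resistant cells and 3.90-fold in treatment-naïve cells, so that its paclitaxel-resistant ratio was 3.54 times the treatment-naïve one (counting interval 3.04 to 4.13). THBS1 had ratios of 0.351, 0.423 and 1.71 in that order and IL6 0.384, 0.316 and 1.32. In both genes the 2 resistant populations were lower in spheroids, and treatment-naïve cells had a ratio above 1. PTGS2 was 5.22-fold and 3.53-fold higher in the resistant populations and 1.36-fold in treatment-naïve cells. For S100A9 the ratio was 105 in paclitaxel-resistant, 404 in doxorubicin-resistant and 14.5 in treatment-naïve cells. Its spheroid levels were 11164, 22941 and 63354 CPM in that order and its attached levels 106, 56.7 and 4383, so that treatment-naïve cells had the highest level in both cultures and the smallest ratio. CXCL8 had a ratio above 1 in paclitaxel-resistant cells alone (1.69, with 0.727 in doxorubicin-resistant and 0.675 in treatment-naïve cells). CD24 and IGFBP5 were lower in all 3 populations, CD24 with ratios of 0.0371, 0.136 and 0.0637. With 1 culture of each kind, the spread between cultures was not measured, and none of these differences between populations was tested.

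The 1587 spheroid barcodes below 1000 UMIs, with a median of 162 UMIs, also held transcripts of leading genes. In CPM they held 16780.3 of S100A9 against 11164 in the kept spheroid cells, 7187 of COL3A1 against 4328, 4244 of PTGS2 against 1549, 15111 of VEGFA against 10005 and 564 of BAD against 724. Their G2/M level was 20143 CPM, against 30350 in the kept cells. Treatment-naïve spheroids on the same cartridge held 63354 CPM of S100A9, 17409 of COL3A1, 16004 of PTGS2 and 742 of BAD. With every deposited barcode included, 37 genes were higher and 62 lower. The log2 ratio of S100A9 was then 6.76 in place of 6.72. That of KRT14 was 0.08 in place of -0.52, of IGFBP3 0.27 in place of -0.07 and of CCL3 -1.84 in place of -2.62. Whether the barcodes below 1000 UMIs held transcripts of other populations was not tested.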

How the data were processed

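The authors deposited 1 count matrix per population, with whole-number UMI counts per gene and cell; per the study's methods these came from the vendor's pipeline as molecules adjusted for recursive substitution errors, and the labels name the hg38 build. No normalization had been applied. The sample labels name populations by tag, and each matrix was assigned by its own name. From the matrices, cells with at least 1000 UMIs were kept (no doublet caller was run), UMIs were summed per gene and scaled to counts per 1000000 (CPM) by the population total, and genes with at least 50 UMIs in either population were compared (Python 3.11.15, numpy 2.4.6, scipy 1.17.1). Calls needed a ratio of 2 and 50 UMIs in the higher population. Ratios carry conditional exact binomial intervals and shares Clopper-Pearson intervals, at 95%. Shares and per-cell values used cells thinned at random to 1000 UMIs. With 1 culture per population no test was run. The calculation was tested on simulated data. Gene positions and promoters are RefSeq, GRCh38.p14, matched by symbol (363 of 373 genes). VEGFA was the only hypoxia-list gene past the rule, and its promoter was not used here.

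Named genes were the 15 largest ratios in each direction, the 10 most abundant genes of either population, the 2 highest and 2 lowest compared genes of each of 23 lists, and 8 markers; others named were chosen after their values were seen. The members and lists were chosen with earlier results of these data known. The alternatives tried changed the cells kept, the scaling, the count minimum and the ratio.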

Additional observations from a re-analysis of the deposited data

Results flagged for a closer look

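C4A, a complement component gene, was the 1 gene that passed the rule in opposite directions between populations. In paclitaxel-resistant cells it had 191 CPM in spheroids and 486 attached, a log2 ratio of -1.35. This call was lost with levels scaled to the median of ratios (-0.91) and in cells thinned to 1000 UMIs (-0.97). In treatment-naïve cells it had 568 in spheroids and 143 attached, 3.97-fold higher in spheroids, and in doxorubicin-resistant cells 599.9 and 316, 1.90-fold. The difference between populations was not tested. C4A shares most of its sequence with the neighbouring gene C4B, and reads of the 2 copies may not be separable. Within the paclitaxel-resistant spheroids 14.8% of cells held the transcript at 1000 UMIs, against 28.9% of attached cells, and the richest 10% of spheroid cells held 83.0% of its UMIs. The gene was chosen after its values were seen.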

How the results depend on the processing

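The number of genes higher in spheroids was 37. It lay between 27 and 48 under the other choices of cells, scaling and count minimum, was 47 at a ratio of 1.5 and was 24 at a ratio of 3. The number of lower genes was 65. It was 53 to 73 when other cells were kept, when cells were thinned, per cell unscaled or at a minimum of 10 or 200 UMIs, but 19 with scaling to the median of ratios, 31 with the total taken without the 10 most abundant genes, 114 at a ratio of 1.5 and 16 at a ratio of 3. Of 37 higher genes, 22 passed under all 9 choices of cells and scaling, and of 65 lower genes 16 did. No gene passed in the opposite direction under any of them, and of the genes past the rule RRM2 and TYMS alone changed sign, to log2 ratios of 0.010 and 0.036 in cells with at most 20 G2/M UMIs. The medians of the hypoxia, matrix, proteolysis, mesenchymal, basal, cytokine, antigen-presentation, PDGF, efflux, RAS and Wnt lists changed sign with scaling or cells kept, those of the other lists did not. Counting precision limits the rarest genes (CCR2, KRT5 and CD38, on 55 or fewer UMIs in the higher population). Restriction to cells with at most 20 G2/M UMIs was chosen after seeing the data. No paired analysis was possible because each group was 1 sample, and for the same reason no replicate could be left out.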
